A study of Mus musculus with 6 samples.

Results

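The SLC25 family of carrier genes was examined in 6 RNA libraries of sorted Tregs, or regulatory T cells, a CD4 lineage that makes FOXP3 and holds immune responses in check. Every protein-coding mouse gene whose symbol starts with Slc25a in GENCODE M21 was taken, and 41 of these 47 genes had at least 10 counts summed over the 6 libraries and are the members described here, of 53379 gene identifiers in the tables. The set was selected on measured values: it was proposed because Slc25a51 had a higher level in the KO libraries of this same comparison, so the level of Slc25a51 by genotype and the genotype differences of the family are given as a description. The cells came from C57BL/6 mice aged 3 months, and all of them carried Foxp3YFP-Cre, a Cre recombinase made under the Treg gene Foxp3. In the 3 WT libraries Junb was unaltered (Junb+/+), and in the 3 KO libraries, titled bKO, Junb was floxed on both alleles (JunbFlox/Flox). This design is meant to limit deletion to cells that have made FOXP3, which was not tested here. JunB pairs with FOS-like or BATF-like proteins to form AP-1 dimers that bind DNA, and the study asked which genes depend on it in Tregs. The labels do not say whether libraries of a genotype came from separate mice, and p-values measure only the spread between these libraries.

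Most SLC25 carriers are proteins of the inner mitochondrial membrane, built from repeats of a shared fold, that exchange or co-transport nucleotides, phosphate, carboxylates, amino acids, cofactors and metal ions between cytosol and matrix. They are made on cytosolic ribosomes and imported. Slc25a51 brings NAD into mitochondria, where NAD serves the citric acid cycle and respiration. Tregs lean on mitochondrial respiration more than stimulated conventional T cells do.

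Junb, the targeted gene, had 87.1, 77.5 and 89.5 CPM (counts-per-million) in WT replicates 1 to 3 and 57.1, 57.3 and 49.6 CPM in KO replicates 1 to 3. The genotypes did not overlap, and the ratio of the KO to the WT level was 0.645. The 8 Treg markers were detected, with a summed level of 2103 to 2487 CPM in WT and 974 to 2257 CPM in KO. KO replicate 1 was the lowest at 974 CPM. Markers of conventional CD4 T cells summed to 1074 to 1281 CPM in WT and 1140 to 1937 CPM in KO. B cell markers summed to 125 to 1046 CPM in WT and 497 to 672 CPM in KO, and myeloid markers to 174 to 952 CPM and 510 to 1063 CPM. CD8 T and NK cell markers summed to 78.5 to 151 CPM in WT and 96.5 to 202 CPM in KO, T cell markers in general to 3135 to 4263 CPM and 2774 to 3357 CPM, and no marker of any of these lists was at 0 in all libraries. By fitted log2 difference, KO minus WT, 0 of 8 Treg and 0 of 6 general T cell markers were higher in KO. Their medians were -0.49 and -0.20. All 8 conventional CD4 T cell markers (median 0.31) and all 8 myeloid markers (0.81) were higher. So were 7 of 8 B cell markers (0.39) and 7 of 8 CD8 T and NK cell markers (0.57), against 50.9% of all genes tested. Library totals were 33784183 to 41231173 counts. In sorted bulk cells, fewer cells of a type and less RNA per cell cannot be told apart.

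The family took 0.145% to 0.156% of all counts in each library. Its members summed to 1497 ± 15.5 CPM in WT (SD, n = 3), against 1554 ± 27.9 CPM for KO (SD, n = 3), and the lowest KO library at 1526 CPM lay above the highest WT library at 1511 CPM. Without Slc25a51 the sums were 1464 ± 16.7 and 1497 ± 28.4 CPM (SD, n = 3 each), and KO replicate 2 at 1471 CPM lay within the WT range of 1445 to 1476 CPM. The small gap between genotypes in the summed level was thus a gap with Slc25a51 in the sum and an overlap with it left out. Leaving out Slc25a5 also gave an overlap, with KO replicate 2 at 960 CPM in a WT range of 946 to 984 CPM. The loss of the gap was therefore not particular to Slc25a51.

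Levels were compared between genes per length, as CPM per kilobase of merged exons (RPKM). Slc25a5, the main ADP/ATP exchanger of dividing cells, held 55.8% ± 2.18 of the family's summed RPKM in WT and 55.6% ± 1.48 in KO (SD, n = 3 each), with 323 ± 18.7 and 332 ± 12.4 RPKM. Slc25a4, the ADP/ATP exchanger best known from heart and muscle, followed at 48.6 ± 7.99 and 54.2 ± 3.53 RPKM. Slc25a11, which exchanges 2-oxoglutarate for malate, had 36.2 ± 0.873 and 37.4 ± 3.25 RPKM. After it came Slc25a3, the phosphate carrier that feeds ATP synthase, at 33.9 ± 2.25 and 37.1 ± 4.50 RPKM, and Slc25a17, a peroxisomal carrier of coenzyme A, FAD and NAD, at 14.8 ± 2.39 and 14.9 ± 1.95 RPKM. These 5 genes held 78.4% to 80.4% of the family level in every library. Along the order of mean levels, 3 steps separated neighbours whose 6-library ranges did not overlap: Slc25a5 over Slc25a4, Slc25a4 over Slc25a11, and Slc25a3 over Slc25a17. All other neighbours overlapped, so the order below Slc25a17 is not resolved step by step.

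**Figure D1:**
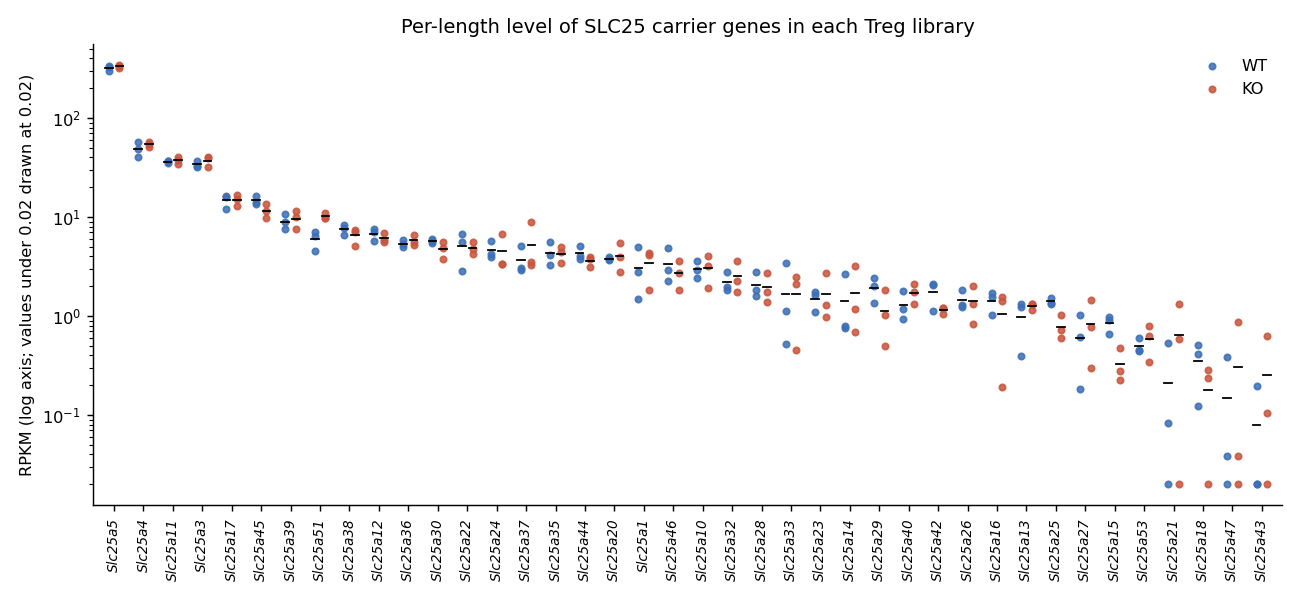
Level of 40 carrier genes as RPKM on a log axis, 1 point per library, with black bars for the mean of each genotype and genes ordered by their mean over 6 libraries. Slc25a5 stands above the rest at 323 and 332 RPKM, the next 3 genes lie between 33.9 and 54.2 RPKM on average, and the lowest genes have libraries at or near 0.

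The level of Slc25a5 carries an uncertainty of counting. Of its 50-base stretches, the read length, 33.8% also occur in 9 other annotated genes. The 6 with the most shared stretches, all annotated as processed copies, summed to 545, 588 and 484 CPM in WT and 550, 568 and 534 CPM in KO, against 544, 554 and 497 CPM and 550, 565 and 525 CPM for Slc25a5 itself. Their sum was 0.974 to 1.06 times the Slc25a5 count in every library, and reads of the copies and of Slc25a5 cannot be told apart where they share sequence. Slc25a35 shared 25% of its 50-base stretches, mostly with Rangrf, a gene on the opposite strand that covers 31.3% of its exons. Across the family, 9 members shared more than 5% of their stretches with another gene, 16 shared none, and 14 overlapped exons of another gene.

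Over the 39 members that passed the filter on low counts, edgeR called 0 after adjustment over all genes, and over all 20475 genes it also called 0 (0.0%). At an unadjusted p under 0.05 it marked 3 members, against 2.88% of all genes. DESeq2 called 0 of 40 members with an adjusted p, against 0.272% of all genes, and limma-voom called 0 of 39. Each marked 3 members at an unadjusted p under 0.05. Over all genes DESeq2 marked 1208 in this way, where 23198 genes had an adjusted p, and limma-voom marked 750 of 20475. Junb, the deleted gene, was not called by edgeR (edgeR adjusted p = 0.9999) but was called by DESeq2 (DESeq2 adjusted p = 0.0042). An absence of edgeR calls therefore does not show an absence of change. In edgeR's fitted log2 differences, KO minus WT, 20 members were higher and 19 lower, with a median of 0.011 beside 0.0055 over all genes. The libraries of the genotypes did not overlap for 4 of the 39 members (10.3%), against 7.76% of all genes. Of these, 1 was higher in KO, where 3.68% of all genes were, and 3 were lower in KO, where 4.07% of all genes were. The higher member is the one the family was proposed for, and these counts are description.

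**Figure D2:**
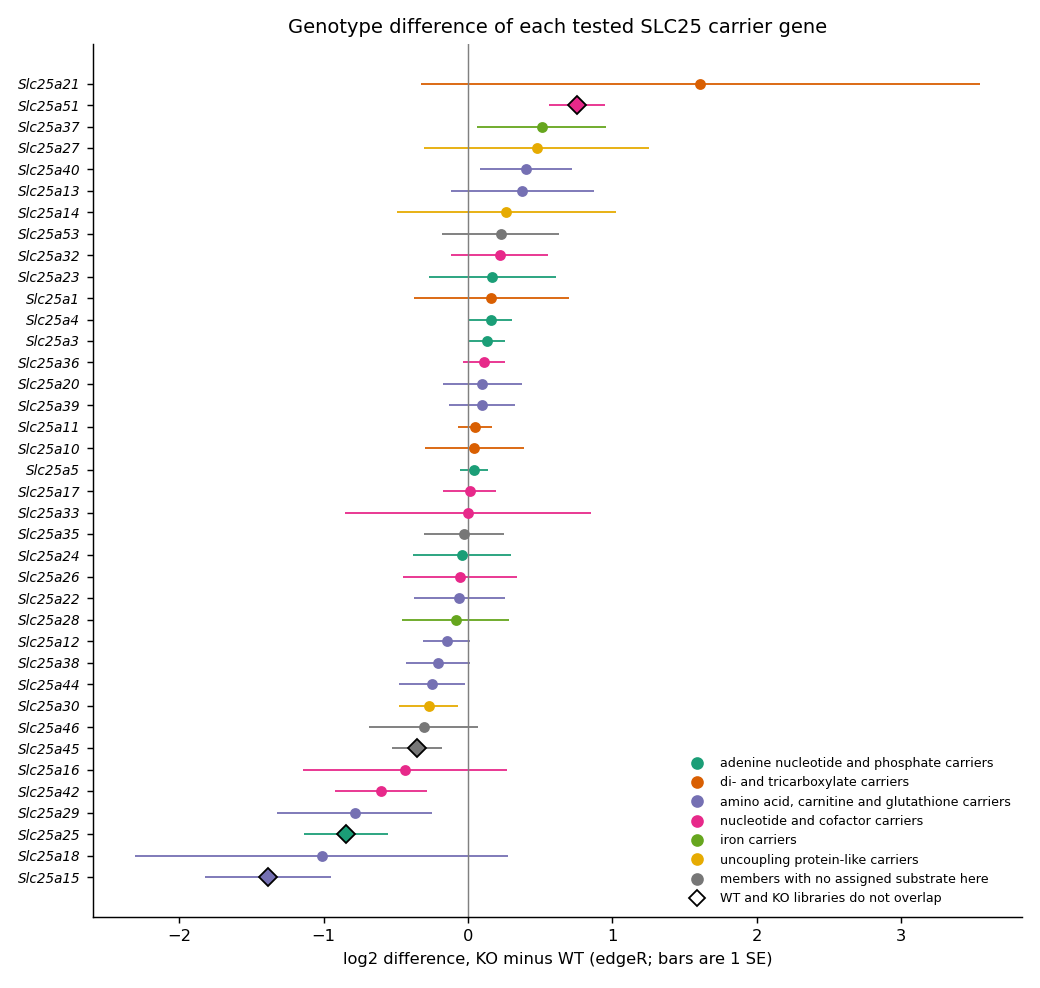
Fitted log2 difference (KO minus WT) of 38 tested carrier genes with bars of 1 SE, coloured by transport class, with diamonds for genes whose genotypes do not overlap. Slc25a51 at 0.76 has a short bar, Slc25a21 at 1.61 has the widest, and most genes lie near 0.

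Slc25a51 (ENSMUSG00000045973.18), the mitochondrial NAD carrier, lies on the minus strand at chr4:45395923-45408766 (GRCm38). It has 6 annotated transcripts and 5510 merged exon bases. Its coding sequence in transcript Slc25a51-201 covers 45404727 to 45404735 and 45399244 to 45400179, so nearly all of the protein is encoded in the last exon. Slc25a51 had 39.2, 25.1 and 35.5 CPM in WT replicates 1 to 3 and 53.8, 54.3 and 60.5 CPM in KO replicates 1 to 3. Every KO library was above every WT library, and WT replicate 2 was the lowest of all. The WT mean of 33.3 ± 7.30 CPM and the KO mean of 56.2 ± 3.70 CPM (SD, n = 3 each) gave a 1.69-fold higher level in KO and a log2 difference of 0.76 with an SE of 0.19. No test is given, because the gene was selected for this difference.

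Within the family, Slc25a51 moved from rank 11 of 41 by mean RPKM in WT, at 6.04 ± 1.32 RPKM, to rank 7 in KO, at 10.2 ± 0.671 RPKM (SD, n = 3 each). It held 1.04% ± 0.235 of the family level in WT and 1.71% ± 0.134 in KO. Its log2 difference was the second highest of the 39 tested members, behind only that of Slc25a21, whose SE was 1.94. Libraries fall into 2 groups by a number carried in each deposited table's name, read here as a sequencing pool: WT replicates 1 and 2 with KO replicate 2, and WT replicate 3 with KO replicates 1 and 3. Within these groups the log2 difference of Slc25a51 was 0.75 and 0.69, from CPM means with 0.1 added. With single libraries left out it lay between 0.59 without WT replicate 2 and 0.89 without WT replicate 1, and it was 0.78 without KO replicate 1, the library with the fewest Treg transcripts. The part of conventional CD4 T cell, myeloid and B cell transcripts, whose sums are given above, was not tested. A microRNA gene, Gm25692, lies in the 3' untranslated region of Slc25a51 at chr4:45396994-45397118 and had 240 counts in all libraries, against 9828 for Slc25a51.

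Of the 8 other nucleotide and cofactor carriers, 3 were higher and 5 lower in KO, with a median log2 difference of -0.0078, and the genotypes overlapped for all 8. Slc25a17 had 46.0, 45.8 and 34.1 CPM in WT and 43.0, 36.4 and 47.5 CPM in KO, and the genotypes overlapped. Slc25a36, a carrier of pyrimidine nucleotides, had 48.0, 55.6 and 51 CPM in WT and 50.1, 53.7 and 63.2 CPM in KO. Its relative Slc25a33 was far more variable, at 0.983, 2.13 and 6.44 CPM in WT and 4.69, 0.857 and 4.01 CPM in KO. Slc25a42, a coenzyme A carrier, was at 12.5, 6.69 and 12.5 CPM in WT and at 7.29, 6.28 and 7.25 CPM in KO, overlapping through WT replicate 2. Its related carrier Slc25a16 ranged from 0.914 CPM in KO replicate 2 to 8.24 CPM in WT replicate 1. Slc25a32, for folate or FAD, and Slc25a26, for S-adenosylmethionine, averaged 13.3 and 7.0 CPM in WT and 15.5 and 6.74 CPM in KO. With Slc25a51, the 9 genes of the class held 7.70% ± 0.212 of the family level in WT and 8.13% ± 1.33 in KO (SD, n = 3 each).

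The adenine nucleotide and phosphate carriers, which move ATP, ADP and phosphate, held 71.4% ± 0.311 of the family level in WT and 72.1% ± 0.360 in KO (SD, n = 3 each). Slc25a4 had 113, 96.1 and 134 CPM in WT and 119, 128 and 135 CPM in KO, and Slc25a3 had 184, 179 and 202 CPM in WT and 219, 177 and 222 CPM in KO. Both overlapped between genotypes, with log2 differences of 0.16 (SE 0.15) and 0.13 (SE 0.13). Slc25a23, Slc25a24 and Slc25a25 are calcium-regulated carriers that exchange ATP-Mg for phosphate. Slc25a24 had 13.6, 14.4 and 19.5 CPM in WT and 11.6, 11.6 and 23.0 CPM in KO, and Slc25a23 averaged 7.87 ± 1.87 and 8.85 ± 4.98 CPM (SD, n = 3 each). Both overlapped between genotypes, with log2 differences of -0.039 (SE 0.34) for Slc25a24 and 0.17 (SE 0.44) for Slc25a23. The level of Slc25a25 was 12.1, 10.7 and 10.4 CPM in WT and 5.72, 4.74 and 8.0 CPM in KO. All its KO libraries thus lay below all its WT libraries. Whether its genotype difference departs from those of these relatives was not tested. The log2 difference of Slc25a25 was -0.85 with an SE of 0.29. Naif1, on the opposite strand, shares 379 bases of its exons (4.82%), and no source used here says whether counting used strand.

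Among the di- and tricarboxylate carriers all 4 members had fitted differences above 0, between 0.044 and 1.61, and all overlapped between genotypes. Over all genes tested 50.9% were above 0. Each difference was below its SE: 0.044 (SE 0.34) for Slc25a10, 0.048 (0.12) for Slc25a11, 0.16 (0.54) for Slc25a1 and 1.61 (1.94) for Slc25a21. With 1 library left out Slc25a1 fell as low as -0.18, Slc25a10 -0.21 and Slc25a11 -0.012, so a direction of the class is not resolved. Slc25a11 had 74.6, 77.4 and 78.1 CPM in WT and 80.0, 85.8 and 72.1 CPM in KO. Slc25a10, the dicarboxylate carrier, averaged 10.2 ± 2.04 and 10.5 ± 3.70 CPM, and Slc25a1, which exports citrate for lipid synthesis, 6.69 ± 3.90 and 7.47 ± 3.03 CPM (SD, n = 3 each). Spread within a genotype was large for Slc25a1, from 3.18 CPM in WT replicate 1 to 10.9 CPM in WT replicate 2. The class held 7.34% ± 0.488 of the family level in WT and 7.46% ± 0.596 in KO (SD, n = 3 each).

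Amino acid, carnitine and glutathione carriers made up 7.24% ± 0.239 of the family level in WT and 6.60% ± 0.489 in KO (SD, n = 3 each). Of its 11 members, 4 were higher and 7 lower in KO, with a median log2 difference of -0.15. Slc25a15, which exchanges ornithine and citrulline for the urea cycle and for ornithine use in the matrix, had the lowest difference of the family in the main fit. Slc25a18 was lower in several alternatives, such as -2.66 against -1.49 for Slc25a15 with a pool term. Slc25a15 was at 5.15, 3.74 and 5.53 CPM in WT and at 1.27, 1.57 and 2.67 CPM in KO, with no overlap. Its log2 difference was -1.39 with an SE of 0.43. The highest of the class per length were Slc25a39, a carrier needed for mitochondrial glutathione, at 9.0 and 9.62 RPKM, Slc25a38, a glycine carrier of heme synthesis, at 7.56 and 6.55 RPKM, Slc25a12, an aspartate/glutamate carrier of the malate-aspartate shuttle, at 6.76 and 6.10 RPKM, and Slc25a22, a glutamate carrier, at 5.06 and 4.85 RPKM, each as WT and KO means. All 4 overlapped between genotypes, with log2 differences from -0.21 to 0.096. Among these 4 genes Slc25a22 varied most within WT, at 40.2, 33.5 and 17.2 CPM. Slc25a29, a carrier of basic amino acids, averaged 5.05 ± 1.41 CPM in WT against 2.93 ± 1.76 CPM in KO (SD, n = 3 each) and overlapped. Slc25a44, for branched-chain amino acids, averaged 15.4 and 12.9 CPM, Slc25a20, for acylcarnitines, 18.4 and 19.7 CPM, and Slc25a40, a relative of Slc25a39, 10.9 and 14.4 CPM.

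Of the members with no substrate assigned here, Slc25a45 had the highest level, at 14.8 ± 1.53 RPKM in WT and 11.6 ± 1.79 RPKM in KO (SD, n = 3 each), close to that of Slc25a17. It was at 45.5, 39.3 and 37.5 CPM in WT and at 27.1, 37.0 and 31.6 CPM in KO. The genotypes did not overlap, but WT replicate 3 at 37.5 CPM and KO replicate 2 at 37.0 CPM nearly met, and the log2 difference was -0.35 with an SE of 0.17. Slc25a35 averaged 16.0 and 15.7 CPM, Slc25a46, an outer membrane protein tied to mitochondrial shape, 18.3 and 14.8 CPM, and Slc25a53, a relative of Slc25a51, 3.99 and 4.66 CPM. The class held 4.0% ± 0.321 of the family level in WT and 3.3% ± 0.327 in KO (SD, n = 3 each). Slc25a47 and Slc25a43 failed the filter on low counts. Slc25a47 had 4, 0 and 47 counts in WT and 1, 4 and 96 in KO, and Slc25a43 had 1, 12 and 0 in WT and 7, 0 and 42 in KO. Slc25a43, with 62 counts in all, was the lowest member. Slc25a41, with 9 counts, fell just below the minimum of 10, followed by Slc25a34 with 3 and Slc25a2 with 1, while Slc25a31, Slc25a48 and Slc25a54 had 0 in all libraries, which allows up to 0.0137 CPM over the pooled libraries, for counting error only.

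**Figure D3:**
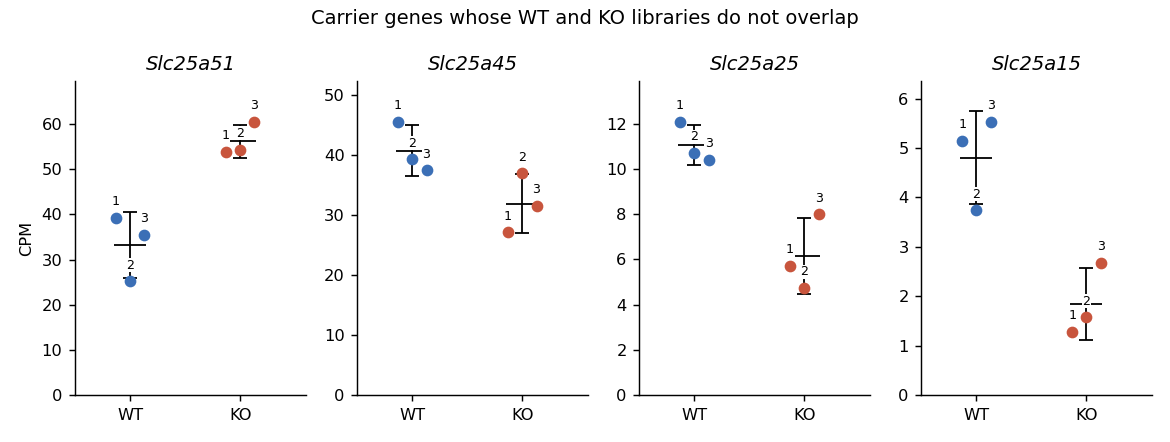
CPM of the 4 carrier genes whose WT and KO libraries do not overlap, 1 point per library with its replicate number, and the mean with bars of 1 SD. Slc25a51 is higher in all KO libraries (53.8 to 60.5 against 25.1 to 39.2 CPM), while Slc25a45, Slc25a25 and Slc25a15 are lower in all of them.

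Of the uncoupling protein-like carriers, relatives of the heat-producing uncoupling protein of brown fat, Slc25a14 and Slc25a27 were low. Slc25a30 lay above the median of the tested members, 3.27 RPKM over all libraries. Slc25a30 had 5.72 and 4.73 RPKM, Slc25a14 1.41 and 1.70 RPKM, and Slc25a27 0.604 and 0.840 RPKM as WT and KO means, and each overlapped between genotypes. Slc25a14 was highest in WT replicate 2, at 6.34 CPM, and KO replicate 2, at 7.65 CPM, and between 1.62 and 2.78 CPM elsewhere.

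The iron carriers, or mitoferrins, bring iron into mitochondria for heme and iron-sulfur clusters. Slc25a28, the widely expressed member, averaged 7.75 ± 2.28 CPM in WT against 7.30 ± 2.57 CPM in KO (SD, n = 3 each). Slc25a37, the member that serves developing red cells, was at 18.4, 17.6 and 30.8 CPM in WT and at 54.2, 21.3 and 19.5 CPM in KO. Its log2 difference was 0.51 with an SE of 0.45, and it was -0.13 without KO replicate 1. The summed level of 8 erythroid markers, the globins and other red cell genes, was 106, 423 and 2825 CPM in WT and 7769, 1659 and 77.0 CPM in KO. Slc25a37 and the erythroid sum thus had their highest value in KO replicate 1 and the next highest in WT replicate 3. Slc25a21, the carrier of 2-oxoadipate, was at 0, 0.409 and 2.60 CPM in WT and at 6.39, 2.86 and 0 CPM in KO. Its libraries with 0 counts were the same libraries, WT replicate 1 and KO replicate 3, that had the lowest erythroid sums, and a count of 0 allows up to 0.0728 to 0.0888 CPM in a library. The part of erythroid RNA in the levels of both genes was not tested. The log2 difference of Slc25a21, 1.61, rests on libraries with 0 counts, and it was 0.50 without KO replicate 1 and 3.88 without WT replicate 3.

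**Figure D4:**
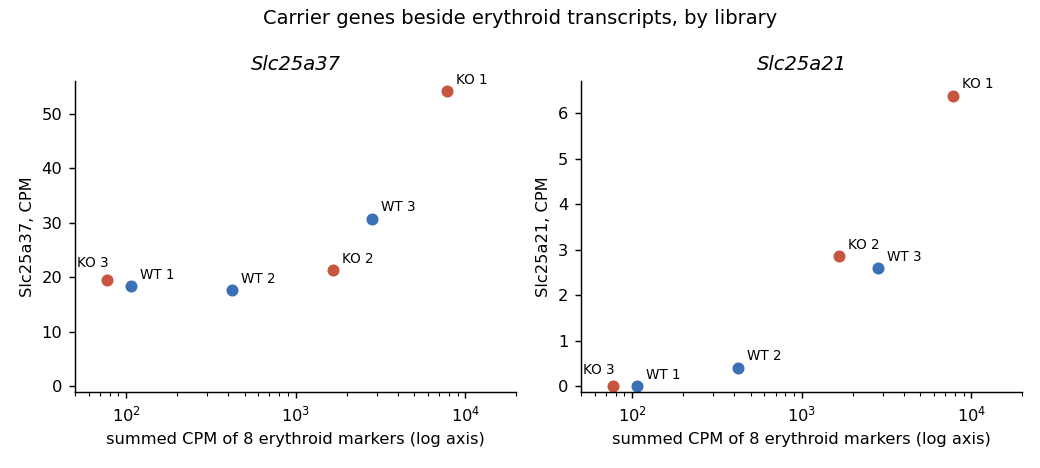
CPM of Slc25a37 (left) and Slc25a21 (right) in each library against the summed CPM of 8 erythroid markers on a log axis. KO replicate 1, with an erythroid sum of 7769 CPM, has the highest value of both genes, 54.2 and 6.39 CPM, and WT replicate 3 and KO replicate 2 follow.

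Spread between libraries of a genotype differed among members. The median coefficient of variation of the 39 tested members was 21.9% in WT and 32.5% in KO, beside 25.5% and 24.9% over all genes tested. It was lowest in WT for Slc25a11 at 2.41% and lowest in KO for Slc25a5 at 3.74%. Slc25a51 had 21.9% in WT, the median member, and 6.58% in KO.

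Which of 2 related carriers had the higher level in these Treg libraries was examined for 12 pairs as the within-library log2 ratio of per-length levels over the 6 libraries, with 0.5 added to each count, by an exact two-sided sign-flip permutation test adjusted over the 12 pairs. With 6 libraries the smallest p is 0.03125. In 11 pairs the ratio had the same sign in 6 of 6 libraries. For 1 of these, Slc25a51 with Slc25a53, no test is given, because the levels of Slc25a51 chose the set. The other 10 each had an exact permutation adjusted p = 0.0341. A mean log2 ratio of 2.68 ± 0.229 (SD, n = 6) put Slc25a5 over Slc25a4, a 6.41-fold higher level that includes the reads shared with copies. Slc25a12 was 6.09-fold over Slc25a13, the liver-associated aspartate/glutamate carrier, with a mean log2 ratio of Slc25a13 to Slc25a12 of -2.61 ± 0.763 (SD, n = 6). Slc25a22 exceeded Slc25a18 by 4.93 ± 2.42 on the log2 scale (SD, n = 6), and by 4.01 without KO replicate 2, where Slc25a18 had 0 counts. Slc25a39 exceeded Slc25a40 by 2.66 ± 0.328, and Slc25a11 exceeded Slc25a10 by 3.65 ± 0.467 on the same scale (SD, n = 6 each). As a description, Slc25a51 was 14.8-fold over Slc25a53, and 9.45-fold with the longest annotated transcript in place of merged exons as the length. Mitoferrins differed less: Slc25a37 was 2.11-fold over Slc25a28. The log2 ratio of Slc25a28 to Slc25a37 was -0.92, -0.67 and -0.89 in WT and -1.73, -1.36 and -0.89 in KO. It was widest in KO replicate 1, the library with the highest erythroid sum, and the part of erythroid RNA in this ratio was not tested. Slc25a36 was 4.25-fold over Slc25a33, or 7.80-fold with the longest transcript as length, and Slc25a20 was 2.83-fold over Slc25a29.

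Among the calcium-regulated carriers, Slc25a24 was 2.96-fold over Slc25a23 and 4.24-fold over Slc25a25. Both ratios depended on the gene length used: with the longest annotated transcript they were 1.88-fold, where the pair no longer passed, and 2.06-fold. The Slc25a25 to Slc25a24 ratio did not overlap between genotypes, at -1.36, -1.62 and -2.10 in WT and -2.22, -2.48 and -2.72 in KO on the log2 scale. It was the only one of the 12 pairs without overlap. Slc25a25 did not overlap by itself either, so the ratio is not a separate result. Slc25a16 and Slc25a42, both coenzyme A carriers, were not resolved, with 2 of 6 ratios above 0, a mean of -0.45 ± 1.02 (SD, n = 6) and an exact permutation adjusted p = 0.375.

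**Figure D5:**
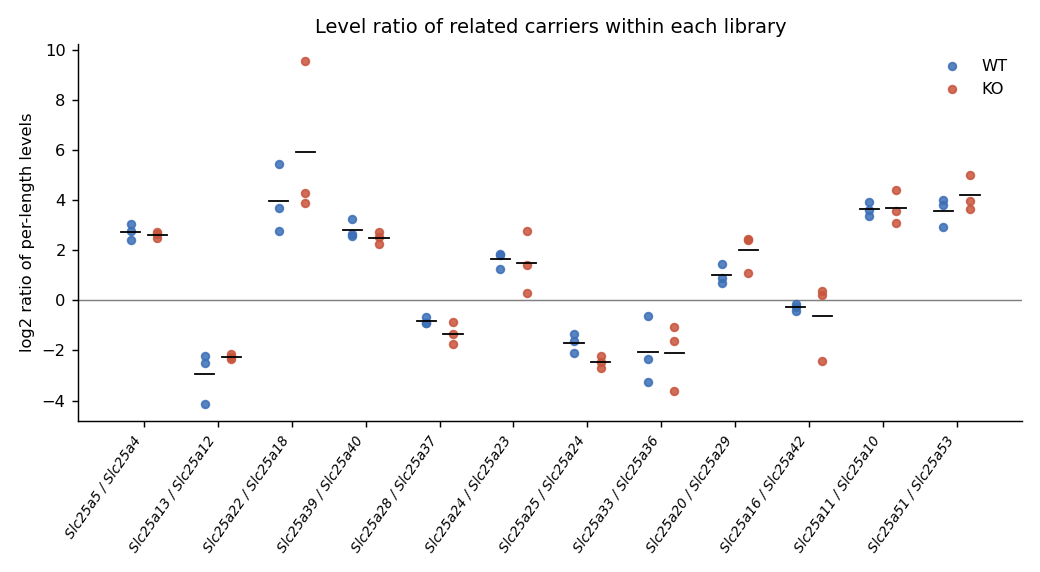
Log2 ratio of per-length levels for 12 pairs of related carriers, 1 point per library, with black bars for the mean of each genotype. In 11 pairs all 6 points lie on the same side of 0, and Slc25a16 / Slc25a42 has points on both sides.

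Genes that work beside the carriers were followed in 6 lists, and edgeR called 0 genes of each. SLC25 proteins with other symbols included Ucp2, an uncoupling protein of immune cells, at 734 ± 7.07 CPM in WT against 734 ± 65.1 CPM in KO (SD, n = 3 each), or 105 RPKM in both, a per-length level above that of all carriers other than Slc25a5. Mtch2, an outer membrane insertase, had 5.04 and 6.05 RPKM as WT and KO means, and Ucp1 had 0 counts in all libraries. Of 23 tested genes of NAD synthesis and use, 12 were higher and 11 lower in KO, with a median log2 difference of 0.014. Nadk, which makes NADP from NAD, and the deacylase Sirt7 were the highest per length, at 24.5 and 23.8 RPKM and at 17.6 and 15.2 RPKM. Within that list 2 genes (8.70%, against 7.76% of all genes) did not overlap between genotypes, a share near that of all genes, and both were lower in KO: Naprt, which starts NAD synthesis from nicotinic acid, and Nadsyn1, the NAD synthetase. Naprt was at 7.05, 5.02 and 11 CPM in WT and at 3.74, 4.06 and 4.47 CPM in KO, a log2 difference of -0.91 (SE 0.37). Nadsyn1 was at 12.9, 17.3 and 13.1 CPM in WT and at 8.69, 6.11 and 11.5 CPM in KO, a log2 difference of -0.72 (SE 0.30).

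Among 6 tested enzymes of the malate-aspartate and glycerol phosphate shuttles, 5 were higher and 1 lower, with a median of 0.10. Mdh1 and Mdh2, the cytosolic and mitochondrial malate dehydrogenases, led with 75.9 and 79.2 RPKM and with 73.7 and 75.4 RPKM as WT and KO means. The 16 genes of carrier import split 8 to 8 with a median of 0.00063, and the small subunits of the outer membrane pore Tomm6 and Tomm7 were highest, at 102 RPKM and about 66 RPKM in both genotypes. Of 19 other mitochondrial carriers and channels, 9 were higher and 10 lower, with a median of -0.053. Mpc1, a subunit of the pyruvate carrier, had 36.2 and 37.2 RPKM, and the channel Vdac1 24.5 and 23.6 RPKM. In that list 2 genes did not overlap between genotypes (10.5%, against 7.76% of all genes), 1 higher and 1 lower. The higher was Abcb8, a subunit of a mitochondrial potassium channel, at 20.0 ± 4.19 CPM in WT against 24.8 ± 0.374 CPM (SD, n = 3 each). Regulators of mitochondrial biogenesis split 5 higher and 9 lower with a median of -0.032, and their highest members per length were Tfam, which packages and transcribes mitochondrial DNA, and Tfb2m, at 11.8 and 11.1 RPKM and at 6.56 and 6.73 RPKM.

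Promoter sequence was read from RefSeq (GRCm38.p6) because the deleted gene encodes a factor that binds short DNA words. Of the 41 members 32 matched, with 42 windows of the 250 bases before an annotated start. Slc25a51 was among the 9 members with no entry. The AP-1 word TGANTCA was in 2 windows (4.76%), against 6.75% of 32851 windows of all genes, and the CRE word TGACGTCA, to which AP-1 family dimers also bind, was in 2 (4.76%) against 1.55%. The NRF1 word was in 1 window (2.38% against 3.74%), the ETS word CCGGAAG in 5 (11.9% against 6.91%) and the E-box CACGTG in 7 (16.7% against 6.02%), with both strands searched. The 7 E-box windows belong to 6 members. Member windows had a median of 57% G and C, against 52.4% for all windows, and its part in these shares was not tested. The windows of 3 members are shown, those of Slc25a25 and Slc25a45 because their genotypes did not overlap, and that of Slc25a13 because it holds the AP-1 word. For each gene the window with the most words was printed, among its windows with little annotated exon sequence. A word in a printed window is therefore a selected find. Slc25a15 did not overlap either and has an E-box in a window, but its windows cover annotated exons and are not printed. Capitals mark the words found.
Slc25a25, CRE, minus strand, chr2:32424067-32424316: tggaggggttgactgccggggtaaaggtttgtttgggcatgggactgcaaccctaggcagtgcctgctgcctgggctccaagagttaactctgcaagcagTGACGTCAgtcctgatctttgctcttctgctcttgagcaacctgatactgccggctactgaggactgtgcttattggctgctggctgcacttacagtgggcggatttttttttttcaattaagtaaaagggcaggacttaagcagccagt
Slc25a45, none of the words, plus strand, chr19:5877572-5877821: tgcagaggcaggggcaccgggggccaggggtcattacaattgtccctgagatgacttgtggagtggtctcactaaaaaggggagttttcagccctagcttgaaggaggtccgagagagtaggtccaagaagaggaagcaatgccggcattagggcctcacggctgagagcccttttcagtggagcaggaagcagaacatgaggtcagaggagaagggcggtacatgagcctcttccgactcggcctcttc
Slc25a13, AP-1 and E-box sharing bases, minus strand, chr6:6217174-6217423: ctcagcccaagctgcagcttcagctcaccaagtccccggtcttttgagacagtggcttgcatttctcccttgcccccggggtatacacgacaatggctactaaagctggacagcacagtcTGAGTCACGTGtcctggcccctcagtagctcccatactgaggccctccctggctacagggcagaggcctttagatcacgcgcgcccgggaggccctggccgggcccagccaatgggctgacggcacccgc
The CRE word of Slc25a25 begins 150 bases before that start, and the counts do not say which of the gene's 12 annotated transcripts was used. That start lies within the gene, annotated at chr2:32414487-32451445. In Slc25a13 the AP-1 word begins 130 bases before the start, and its level was 5.03, 1.49 and 4.66 CPM in WT and 5.06, 5.08 and 4.37 CPM in KO, which overlapped. The other member with an AP-1 word, Slc25a11, also overlapped, and Slc25a36, the other with a CRE, did as well. A word in a window is a match of letters and not a measured binding site.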

How the data were processed

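RNA of sorted Tregs was sequenced as single reads of 50 bases in 3 WT and 3 KO libraries, per the labels. The authors deposited raw counts per Ensembl gene, 1 table per library. The submitters' processing notes name bcl2fastq 2.19.0.316, STAR 2.3, featureCounts and mm10; no source used here gives the annotation release, the strand setting or the treatment of reads with several matches. No molecular identifiers are named, so PCR copies may be counted. Of 53379 identifiers 53274 matched GENCODE M21 (GRCm38) without the version number.

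KO was compared with WT by the robust quasi-likelihood test of edgeR 4.0.16 (R 4.3.3), two-sided, on genotype alone, after filterByExpr and TMM scaling, with Benjamini-Hochberg adjustment over 20475 genes and a threshold of 0.05. The script was tested on simulated data. CPM use TMM library sizes, and RPKM divide CPM by merged exon length in kilobases. The common dispersion of 0.26, a coefficient of variation of 51% between libraries, limits precision. The number in the table names that was read as a sequencing pool is not explained in the labels. Alternatives were DESeq2 1.42.0, limma-voom (limma 3.58.1) with and without library weights, other normalization and filters, a replicate block, a pool term, and each library left out. Libraries differed pairwise far more than sampling noise (chi-square per degree of freedom of 35.8 or more), so none was a copy.

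Named genes are Slc25a51, the 4 highest members per length in each class, members whose genotypes did not overlap or that failed the filter, paralog pairs, and, of each related list, the 2 highest per length with up to 3 that did not overlap. Slc25a26, Slc25a32, Slc25a44 and Ucp1 are named outside this rule, after their values were seen. The members, classes, lists and pairs were chosen with earlier results of these data known. Of 13 pairs, Slc25a15 with Slc25a2 was left out because Slc25a2 had 1 count. A member and a related gene that the rule names are not reported here by name, and the member is left out of the plots.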

Additional observations from a re-analysis of the deposited data

How the results depend on the processing

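With DESeq2 and no edgeR filter 63 genes were called in place of 0, and 0 SLC25 members were called under each alternative run. Leaving out a library, the members without overlap numbered 4 to 10: 10 without WT replicate 2, 9 without WT replicate 3 and 10 without KO replicate 3, where fewer libraries make separation easier and 19.2%, 18.1% and 18% of all genes did not overlap. Deviations of same-numbered libraries had correlations of -0.095, 0.19 and 0.035, against -0.18 to 0.13 for different numbers. So few values cannot exclude a pairing by replicate number. With a replicate block 0 genes were called and the log2 difference of Slc25a51 was 0.78. Its rank among the members lay between 2 and 6 over the alternatives. Of 531 member differences recomputed, 56 changed sign, over 23 of 38 members other than Slc25a51, and 1 moved beyond its error: Slc25a18 was -2.66 with a pool term. The median of the NAD list was 0.19 with a pool term, and that of the biogenesis regulators was -0.094 without KO replicate 1. The log2 difference of Slc25a51 lay between 0.59 and 0.89 over all alternatives, and the median of the members between -0.061 and 0.074, so its sign is not settled. Of the 12 pairs, 10 kept 1 sign in all libraries with the longest transcript as length. With 5 libraries the permutation test cannot pass 0.05, and 11 pairs then kept 1 sign. How far sequencing depth limits the low members was not tested.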

Other observations

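Other carriers of heme and iron metabolism were set beside Slc25a37 after its values were seen. Abcb10, a heme-related transporter of the inner membrane that partners Slc25a37, was at 3.15, 3.3 and 23.0 CPM in WT and at 28.5, 13.1 and 3.61 CPM in KO, so that its 3 highest libraries were the 3 with the highest erythroid sums. Slc25a38 was at 21.3, 18.1 and 22.9 CPM in WT and 20.4, 19.6 and 14.0 CPM in KO. Slc25a39 was at 20.6, 29.3 and 24.4 CPM in WT and 31.5, 27.3 and 20.7 CPM in KO. Slc25a38 and Slc25a39 spanned a much narrower range than Abcb10. Slc25a28, the other mitoferrin, was at 6.04, 6.86 and 10.3 CPM in WT and 10.1, 5.17 and 6.58 CPM in KO. The part of erythroid RNA in the levels of these genes was not tested.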
